A study of Mus musculus with 26 samples.

Results

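The cytochrome P450 family was described in 5 exocrine glands from both sexes of BALB/c, an inbred strain of laboratory mouse. Its members were the array probes whose annotated mouse symbol is Cyp followed by a number and a letter. Cyp51, Cyp2b10 and Cyp4a12a were left out. This gave 45 probes, each for a different gene, of 10500 probes on the array. The arrays held RNA of male and female submandibular, sublingual, parotid, lacrimal and meibomian glands. Each array carried 1 pool, made from 10 glands of 5 animals. Males and females had 3 pools each for the submandibular, lacrimal and meibomian gland, and 2 each for the sublingual and parotid, which makes 26 arrays. No treatment or genetic change was named, so all groups were untreated BALB/c mice as far as the labels say. Age and husbandry are not given in the sources used here. A pool averages over its animals, so the spread reported here is that between pools.

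P450 enzymes are haem proteins that insert an oxygen atom into their substrates. Most sit in the endoplasmic reticulum and take electrons from P450 reductase, and those of mitochondria take them from ferredoxin. The families differ in what they act on: families 1, 2 and 3 mainly handle foreign compounds, family 4 and the 2J enzymes fatty acids and eicosanoids, and others make or break down steroids, bile acids, vitamin D and retinoic acid. Several mouse liver P450 genes are known for levels that differ between males and females. The glands studied here are secretory: the submandibular, sublingual and parotid glands make saliva, the lacrimal gland secretes tear fluid, and the eyelid's meibomian glands secrete the lipid film that covers it.

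The values are scaled single-channel intensities, with array medians of 0.928 to 0.955. The Y-linked gene Eif2s3y was higher on every male array (1.21 to 10.7) than on every female array (at most 0.23). Xist, the RNA of the inactive X, was below the 30th percentile on all 13 male arrays but also on 4 of 13 female arrays. Its sexes were separate in 4 glands and overlapped in the lacrimal. The sum over 5 lacrimal acinar markers was 523 to 851 in lacrimal pools and at most 15.4 in any other. The sum over 7 meibocyte markers was 352 to 502 in meibomian pools and at most 105 in any other. Some genes of these lists went the other way. Csn1s2b was higher in the submandibular (4.4) than in the lacrimal gland (3.56), and Lcn4 was highest in the parotid (1.75). Mogat1 was lowest in the meibomian gland (0.156) and highest in the lacrimal (1.71). The sum over 4 salivary acinar markers was 725 to 1300 in lacrimal pools and 419 to 1400 in salivary pools, and so did not separate them. The meibomian pools also held epidermal and muscle RNA, with sums of 148 to 254 over 6 epidermal markers (at most 6.84 elsewhere) and of 202 to 343 over 10 skeletal muscle markers. Lor, of the epidermal list, was instead lowest in the meibomian gland (0.948). The parotid pools had muscle sums of 56.5 to 218 and sums over 6 adipocyte markers of 158 to 475, against 11 to 226 elsewhere. The sum over 3 granular duct markers was 369 to 738 in submandibular, 198 to 351 in sublingual and 140 to 368 in parotid pools. In lacrimal pools it was 2.97 to 93.5, and Amy1 ran from 6.36 to 362 there. Egf, of the granular duct list, ran from 3.09 to 86.5 in sublingual pools. Whether salivary tissue was carried over between glands was not tested. Along the leading principal component of deviations from the group means, pool B of the submandibular and lacrimal glands and pool A of the meibomian gland lay on the opposite side from the other 2 pools of their group, in both sexes. In the sublingual and parotid groups, where 2 pools must mirror each other, pool A lay on that same side. These 10 arrays, a set found from the values and not from the labels, are called the first array set, and the other 16 the second. Results were also computed within each set. In pooled tissue, fewer cells of a type and less RNA per cell cannot be told apart.

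Of the 45 P450 probes, 28 passed the filter, which asked for a level at or above the array's 30th percentile on every measured array of at least 1 group. Over the whole array 8211 of 10500 probes passed, a larger share. The arrays' 30th percentiles lay between 0.281 and 0.561. By role, 15 of 22 probes for enzymes of foreign compounds passed, 6 of 10 for fatty acid and eicosanoid enzymes, 4 of 6 for cholesterol, oxysterol and bile acid enzymes, 1 of 3 for vitamin D and retinoic acid enzymes and 1 of 3 for steroid synthesis enzymes. Cyp20a1, whose substrate is not established, passed too. The 17 that did not pass included hepatic genes, such as Cyp7a1 (the first step of the classical bile acid pathway), Cyp8b1, Cyp3a11 and Cyp2c29. They also included the adrenal and gonadal genes Cyp11a1 (side chain cleavage of cholesterol) and Cyp21a1 (steroid 21-hydroxylase), and Cyp24a1 and Cyp26a1, which break down vitamin D and retinoic acid. The rest were Cyp2c37, Cyp2c39, Cyp2c40, Cyp2d26, Cyp2j5, Cyp3a16, Cyp4a14, Cyp4f14 and Cyp4f18. The highest level of any of the 17 on any array was 1.1, and 4 of them (Cyp3a11, Cyp2d26, Cyp4f14 and Cyp21a1) stayed below the 30th percentile on all 26 arrays. Probes differ in how brightly they hybridise, so levels are compared across groups for 1 probe and not between probes. Near-identical paralogs (Cyp2b, Cyp2c, Cyp2d, Cyp3a, Cyp4f) may share signal, and the probe sequences were not used here.

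**Figure D1:**
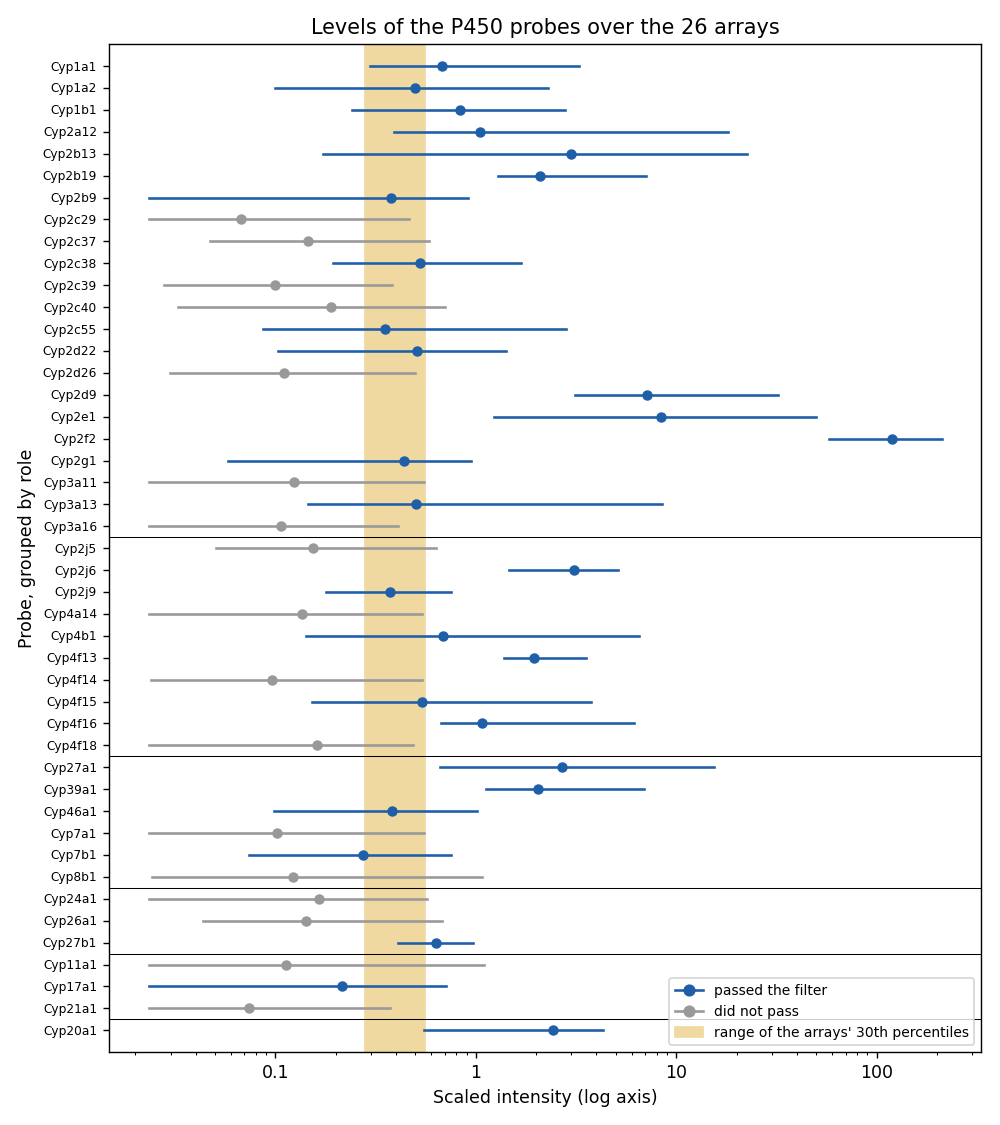
Level of each of the 45 P450 probes over the 26 arrays, as scaled intensity on a log axis; the point is the median, the line runs from the lowest to the highest array, and horizontal rules separate the roles (foreign compounds at the top, then fatty acids, cholesterol and bile acids, vitamins, steroids and Cyp20a1). The 28 probes that passed the filter are blue, the 17 others are grey, and the shaded band spans the arrays' 30th percentiles, 0.281 to 0.561.

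The first comparison asked which P450 genes differ between males and females. In the lacrimal gland 4 of the 28 probes passed an adjusted p of 0.05 (14.3%), against 5.41% of all 8211 probes kept. In each direction 2 passed (7.14%), against 2.9% of all probes higher in males and 2.51% lower. Cyp3a13 and Cyp2c55, both of families that handle foreign compounds, were higher in males, and Cyp4f15 and Cyp39a1, an eicosanoid-family enzyme and an oxysterol 7-alpha-hydroxylase, were lower. All adjusted p-values here come from limma over all kept probes with Benjamini-Hochberg adjustment, and errors are standard errors.

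Cyp3a13, the mouse CYP3A gene known for expression in the intestine, had 8.54, 4.70 and 7.58 in the male lacrimal pools A, B and C, against 1.31, 0.444 and 1.03 in the female pools. The lowest male pool lay above the highest female pool. The log2 difference was 3.0 ± 0.37 (7.98-fold, with geometric means of 6.72 in males and 0.843 in females, n = 3 each, limma adjusted p = 1.52e-05). It was 3.40 in the first array set and 2.79 in the second. In the other 4 glands the sexes overlapped: geometric means were 0.340 in males and 0.412 in females (submandibular), 0.184 in males and 0.263 in females (sublingual), 0.415 in males and 0.431 in females (parotid), and 1.26 in males and 1.12 in females (meibomian). The sex difference differed between glands (moderated F test, adjusted p = 0.00143), as it did for 2 of the 28 members (7.14%) and 2.62% of all probes kept.

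Cyp2c55, a CYP2C enzyme known in the mouse colon that oxidises arachidonic acid, had 2.81 and 2.44 in male lacrimal pools B and C, with the spot of pool A missing, against 0.981, 0.666 and 0.894 in the female pools. No female pool reached a male one. The difference was 1.65 ± 0.32 on the log2 scale (n = 2 and 3, limma adjusted p = 0.00293), and it rests on 2 male arrays. With that spot's missing-value code read as a low signal, the difference turned to -0.62 (adjusted p = 0.923), and the call was also lost in the second array set alone and with the lacrimal arrays fitted alone. In the submandibular gland the same probe lay the other way, with 0.352, 0.297 and 0.244 in males and 0.500, 0.500 and 0.517 in females. That submandibular difference of -0.78 ± 0.29 did not pass (adjusted p = 0.247). The test between glands gave an adjusted p of 0.0187.

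Cyp4f15, of the leukotriene-hydroxylase family, had 0.396, 0.341 and 0.605 in male lacrimal pools, against 1.08, 1.26 and 0.975 in female pools. The groups did not overlap. The difference was -1.34 ± 0.32 (limma adjusted p = 0.0141, n = 3 each). It no longer passed without male pool B or without female pool B. The call was also lost in the second array set alone and with the lacrimal arrays fitted alone. In the submandibular gland males had 0.586, 0.636 and 0.531, against 0.294, 0.361 and 0.379 in females. The groups were again separate, in the other direction, but the difference of 0.77 ± 0.32 did not pass (adjusted p = 0.357). The parotid groups did not overlap either, with 0.163 and 0.377 in males and 0.550 and 0.492 in females (-1.07 on the log2 scale, adjusted p = 1). The test between glands did not pass (adjusted p = 0.0681).

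Cyp39a1, which hydroxylates 24-hydroxycholesterol, had 2.75, 1.15 and 2.14 in male lacrimal pools and 6.91, 2.74 and 4.36 in female pools. Each male pool lay below the female pool of its own letter, while male A and female B were nearly level. The difference was -1.2 ± 0.35 (adjusted p = 0.0472, n = 3 each), close to the threshold, and it did not pass under 23 of 35 other settings. In the submandibular gland the order was reversed, with 6.60, 4.01 and 5.23 in male pools and 2.66, 1.79 and 2.83 in female pools. There every male pool lay above every female pool, and the difference was 1.12 ± 0.35 (adjusted p = 0.113).

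The labels do not say whether male and female pools of the same letter belong together, but their deviations from the group means were alike. The same fit was therefore run with the letter as a block, a pairing taken from these values. It left all 4 lacrimal calls in place, with Cyp39a1 at an adjusted p of 0.000226. With the block 6 of the 28 members passed in the lacrimal gland (21.4%), against 13.5% of all probes kept. It added Cyp2f2 (-0.97 ± 0.20, adjusted p = 0.00734) and Cyp27a1 (0.74 ± 0.22, adjusted p = 0.0416), which without the block had adjusted p-values of 0.0965 and 0.265. Cyp2f2, an enzyme known from the airway's club cells, had 130.0, 57.7 and 79.8 in male lacrimal pools and 211, 174 and 123 in female pools, so that 1 male pool lay above the lowest female one. Cyp27a1, the mitochondrial sterol 27-hydroxylase, had 15.5, 5.82 and 9.39 in male pools and 6.87, 4.99 and 5.26 in female pools.

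In the submandibular gland none of the 28 members passed in limma without the block, against 2.59% of all probes kept, although 6 had an unadjusted p below 0.05 (21.4%, against 10.1% of all probes). With the pool letter as a block 3 passed (10.7%, against 7.19% of all probes). Cyp39a1 was higher in males (1.12 ± 0.15, adjusted p = 0.000836). Cyp2a12 (-0.86 ± 0.20, adjusted p = 0.0238) and Cyp46a1 (-0.92 ± 0.24, adjusted p = 0.042) were lower. Cyp2a12, a steroid 7-alpha-hydroxylase of mouse liver, had 0.718, 1.17 and 0.528 in male pools and 1.05, 1.95 and 1.30 in female pools, with male B inside the female range. Cyp46a1, which makes 24-hydroxycholesterol, had 0.295, 0.484 and 0.432 in male pools and 0.750, 0.663 and 0.847 in female pools, which do not overlap.

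In the sublingual, parotid and meibomian glands limma called no member, with or without the block. The share of all probes kept that passed was 0.207%, 0.0244% and 0.0365% without the block, and 0.438%, 0.0122% and 0.0365% with it. At an unadjusted p below 0.05 there was 1 member in the sublingual gland (3.57%, against 2.91% of all probes), 2 in the parotid (7.14%, against 1.62%) and 0 in the meibomian (against 0.231%). In the lacrimal gland 7 members lay below it (25%, against 14.7%). Over the mean of the 5 glands no member passed (1.27% of all probes), with 3 at an unadjusted p below 0.05 (10.7%, against 7.95%). The block there called 2 members (7.14%, against 3.99% of all probes): Cyp3a13 (0.46 ± 0.09, adjusted p = 0.018) and Cyp2e1 (0.52 ± 0.12, adjusted p = 0.031).

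Cyp2e1, which oxidises ethanol and other small molecules, had different orders of the sexes in different glands. In the submandibular gland it had 19.4, 14.8 and 15.9 in males and 9.47, 7.04 and 11.2 in females, with no overlap. In the lacrimal gland it had 4.0, 1.24 and 1.86 in males and 4.58, 2.70 and 3.86 in females. The F test between glands gave an adjusted p of 0.536, and 0.033 with the block. The block also brought Cyp4f15 (0.0242) and Cyp39a1 (0.000528) past that test, which then called 5 of the 28 members (17.9%), against 6.97% of all probes.

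Some marker sums separated the sexes, meaning that the male and female pools did not overlap. Groups of 2 or 3 pools can separate without a sex difference, and no such share was computed over all probes. These counts therefore do not show a sex difference by themselves. Of 12 marker lists, the sums of 2 separated the sexes in the lacrimal gland and those of 4 in the submandibular. In the sublingual, parotid and meibomian glands, where no P450 member was called, the sums of 3, 2 and 1 did so. Among these were the meibocyte sum, lower in males in the sublingual and parotid glands, and the endothelial sum, lower in males in the parotid. In lacrimal pools the sum over 7 endothelial markers was 2.58 to 4.81 in males and 4.91 to 5.47 in females. The sum over 4 steroidogenic markers was 20.6 to 29.3 in males and 32 to 36.7 in females. Fdx1, at a lacrimal level of 28.4, made up nearly all of the latter, with Cyp11a1, Star and Hsd3b1 at 0.376, 0.213 and 0.102. That sum therefore reads Fdx1 and not a cell type. The lacrimal acinar sum overlapped, at 523 to 851 in males and 586 to 732 in females, as did the adipocyte sum (11 to 29.2 in males and 21.8 to 46.0 in females) and the sum over 9 T and B cell markers (20 to 59.7 in males and 12.6 to 30.4 in females).

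In submandibular pools the granular duct sum over 3 markers was 625 to 738 in males and 369 to 488 in females, and the muscle sum was 18.4 to 24.8 in males and 2.68 to 4.49 in females. The T and B cell sum there was 11.6 to 21.6 in males and 25.5 to 35.5 in females. The sum over the meibocyte list was 22.6 to 27.3 in males and 84 to 105 in females. Its submandibular levels were 27.3 for Fabp5 and 18.2 for Scd1, against 0.442 for Elovl3, 0.227 for Mogat1 and 0.220 for Elovl4. That sum therefore reads Fabp5 and Scd1 and does not show meibocytes in this gland. The part of these marker genes, or of any cell type, in the P450 differences was not tested.

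**Figure D2:**
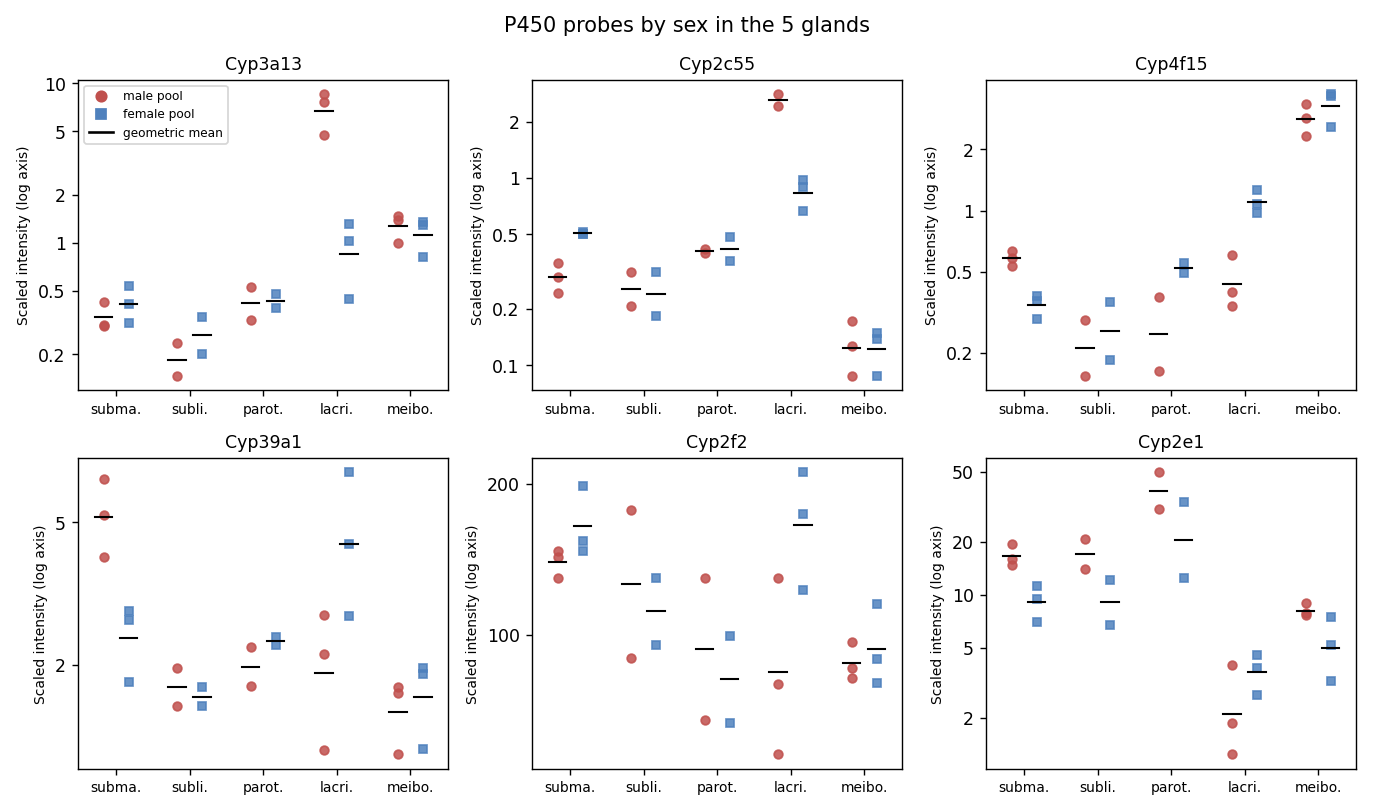
Scaled intensity (log axis) of 6 P450 probes on every array, by gland; red circles are male pools, blue squares female pools and black bars the geometric means. In the lacrimal gland the male pools of Cyp3a13 (4.70 to 8.54) and Cyp2c55 (2.44 and 2.81) lie above the female pools, and those of Cyp4f15 (0.341 to 0.605) lie below them.

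The promoter windows of Cyp3a13, Cyp2c55 and Cyp4f15 are shown because these 3 passed the sex test in the lacrimal gland with groups that did not overlap. Each runs from 250 bases before to 50 after the RefSeq transcript start, on GRCm38.p6. They lie at chr5:137921570-137921869 (minus strand), chr19:39006769-39007068 (plus strand) and chr17:32685409-32685708 (plus strand). Sequences are from RefSeq, 5′ to 3′ along the gene, and capitals mark a TATAAA match.
Cyp3a13: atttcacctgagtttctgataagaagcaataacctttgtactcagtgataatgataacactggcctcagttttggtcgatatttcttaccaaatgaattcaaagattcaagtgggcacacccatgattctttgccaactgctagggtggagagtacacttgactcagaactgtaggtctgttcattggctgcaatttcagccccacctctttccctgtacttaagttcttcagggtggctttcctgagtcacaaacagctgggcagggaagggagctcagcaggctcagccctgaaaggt
Cyp2c55: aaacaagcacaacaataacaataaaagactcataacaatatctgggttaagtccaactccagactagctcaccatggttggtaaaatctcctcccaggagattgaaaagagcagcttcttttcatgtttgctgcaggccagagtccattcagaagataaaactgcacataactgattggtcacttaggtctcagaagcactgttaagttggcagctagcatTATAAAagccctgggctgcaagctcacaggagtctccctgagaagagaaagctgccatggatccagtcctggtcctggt
Cyp4f15: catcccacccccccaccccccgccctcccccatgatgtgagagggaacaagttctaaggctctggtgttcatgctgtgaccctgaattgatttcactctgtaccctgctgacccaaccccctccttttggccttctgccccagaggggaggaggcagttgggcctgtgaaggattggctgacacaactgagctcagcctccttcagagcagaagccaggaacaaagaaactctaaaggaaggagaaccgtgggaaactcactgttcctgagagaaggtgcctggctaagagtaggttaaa

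The search used AGAACA, the hexamer of the androgen and glucocorticoid receptor element, TATAAA, the TATA box, and GCGTG, the core of the Ah receptor element, on both strands. None of these 3 windows held AGAACA, and Cyp2c55 held TATAAA 29 bases before the start. RefSeq windows were found for 36 of the 45 members, 41 windows in all. AGAACA was in 22.0% of the member windows and in 19.0% of all 32851 windows of the same length, and TATAAA in 39.0% and 13.6%. No match says only that these letters are not in the window.

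The second comparison asked how each gland differs from the mean of the other 4, with the sexes weighted equally. A call needed an adjusted p below 0.05 and a log2 difference of at least 1. Of the 28 members, 25 differed between glands in the F test (89.3%), against 80.5% of all probes kept, so most probes of any kind did. The exceptions were Cyp27b1, Cyp4f13 and Cyp2g1. The members were most often highest in the parotid and meibomian glands (8 each), then in the lacrimal (6), submandibular (4) and sublingual (2) glands. No such tally was made over all probes, so it cannot be read as a trait of the family. It includes the exceptions just named, and Cyp17a1 and Cyp2g1, which passed the filter only through the meibomian gland.

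The meibomian gland called 17 of 28 members (60.7%, against 37.9% of all probes kept), 9 higher and 8 lower. By direction these were 32.1% of the members against 17% of all probes, and 28.6% against 20.9%. Of the 9 higher, Cyp17a1 and Cyp2g1 had passed the filter only through the meibomian gland and so had to be high there, and 7 of the other 26 members were higher. The parotid gland called 9 (32.1%, against 17.1%), with 7 higher (25%, against 8.94%) and 2 lower (7.14%, against 8.12%). The lacrimal gland called 8 (28.6%, against 20.2%), with 4 higher (14.3%, against 11.6%) and 4 lower (14.3%, against 8.57%). The submandibular gland called 5 (17.9%, against 12.3%), with 1 higher (3.57%, against 5.69%) and 4 lower (14.3%, against 6.6%). The sublingual gland called 5 (17.9%, against 11.1%), with 2 higher (7.14%, against 5.87%) and 3 lower (10.7%, against 5.25%). The median difference over the members was -0.10 in the meibomian gland (all probes -0.09) and -0.10 in the parotid (all probes -0.13). Where a probe lay below the 30th percentile on every array of a low group, that group was set at the percentile and the fold is given as at least that large.

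**Figure D3:**
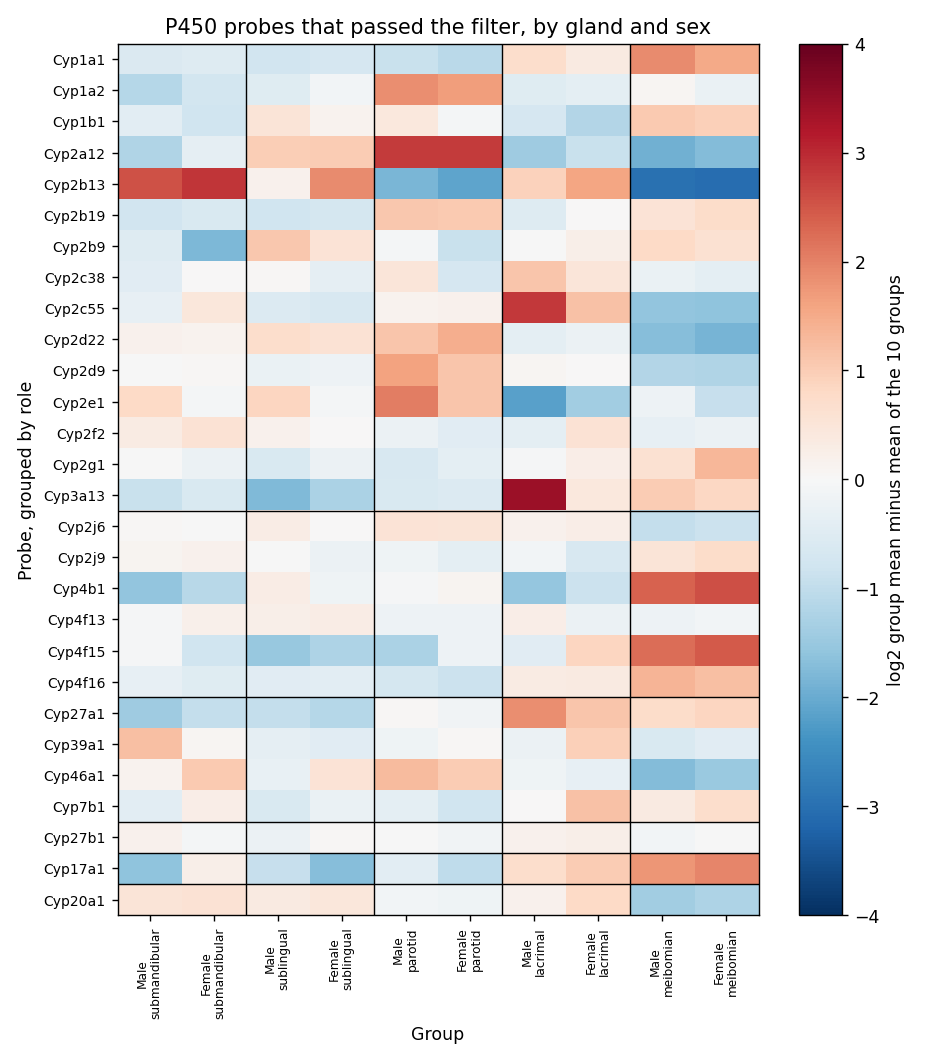
Group means of the 28 P450 probes that passed the filter, as the log2 group mean minus the probe's mean over the 10 groups (red higher, blue lower); columns are the 5 glands with males left of females, and rows are grouped by role from foreign compounds at the top to Cyp20a1 at the bottom. Cyp2b13 is red in the submandibular gland and blue in the meibomian, Cyp2a12 is red in the parotid, and Cyp4b1 and Cyp4f15 are red in the meibomian.

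Among the family 1 enzymes, which activate and break down aromatic hydrocarbons, the adjacent genes Cyp1a1 and Cyp1a2 had their peaks in different glands. Cyp1a2, best known from liver, had 1.85 and 2.29 in the male parotid pools and 1.70 and 1.99 in the female ones, and no array of another gland was above 0.834. The parotid difference was 2.20 ± 0.33 (1.94 against 0.422, limma adjusted p = 2.23e-05), and in the submandibular gland it was -1.17 ± 0.28 (adjusted p = 0.00329), a call lost without male pool A. Cyp1a1 ran from 2.03 to 3.26 in meibomian pools, with a median of 2.80. The next gland was the lacrimal, with a median of 1.12 and 1 male pool at 2.46 that overlapped the meibomian range.

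The meibomian difference of Cyp1a1 was 2.13 ± 0.21 (2.60 against 0.592, adjusted p = 2.35e-08). In the parotid gland, where Cyp1a2 was highest, Cyp1a1 was lowest, at 0.401 against 0.944 (-1.24 ± 0.25, adjusted p = 0.00049). Cyp1b1, the extrahepatic member of the family, was also higher in the meibomian gland, at 1.76 against 0.733 (1.26 ± 0.32, adjusted p = 0.00161), overlapped other glands, and did not hold in the second array set alone (0.94). It was lower in the lacrimal gland (-1.14 ± 0.32, adjusted p = 0.00548), with a difference of -0.13 in the first array set and -1.79 in the second. The call of Cyp1b1 in the lacrimal gland was lost without male parotid pool B or without male lacrimal pool A.

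Promoter windows of the 3 family 1 genes are shown because the receptor that controls them, Ahr, was itself measured. They lie at chr9:57697363-57697662 (plus strand), chr9:57683606-57683905 (minus strand) and chr17:79715012-79715311 (minus strand) on GRCm38.p6. Capitals mark GCGTG or its reverse complement CACGC, and TATAAA.
Cyp1a1: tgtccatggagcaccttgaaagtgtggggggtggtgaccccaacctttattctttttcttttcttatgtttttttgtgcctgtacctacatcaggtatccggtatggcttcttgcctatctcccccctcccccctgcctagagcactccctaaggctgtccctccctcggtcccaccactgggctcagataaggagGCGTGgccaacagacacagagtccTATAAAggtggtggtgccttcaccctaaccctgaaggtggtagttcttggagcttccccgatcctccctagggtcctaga
Cyp1a2: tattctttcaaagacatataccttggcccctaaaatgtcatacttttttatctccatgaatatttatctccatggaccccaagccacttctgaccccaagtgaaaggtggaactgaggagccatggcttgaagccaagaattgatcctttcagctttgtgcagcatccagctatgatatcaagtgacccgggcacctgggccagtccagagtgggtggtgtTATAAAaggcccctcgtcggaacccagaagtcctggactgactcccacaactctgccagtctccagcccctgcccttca
Cyp1b1: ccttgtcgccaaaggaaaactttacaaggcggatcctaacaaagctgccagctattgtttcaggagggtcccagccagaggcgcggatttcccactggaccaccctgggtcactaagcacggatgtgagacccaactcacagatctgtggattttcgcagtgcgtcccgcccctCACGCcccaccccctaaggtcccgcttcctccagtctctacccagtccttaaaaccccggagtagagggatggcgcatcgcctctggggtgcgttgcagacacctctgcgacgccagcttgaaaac

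The Cyp1a1 window held GCGTG 54 bases before the start and TATAAA 30 bases before it. The Cyp1a2 window held TATAAA 29 bases before the start and no GCGTG, and the Cyp1b1 window held GCGTG, on the opposite strand, 76 bases before it. GCGTG was in 17.1% of the member windows and 32.4% of all windows. Ahr, the receptor of aromatic hydrocarbons, had a level of 3.43 in the meibomian gland against 1.39 in the others (1.30 ± 0.15, adjusted p = 1.39e-07). In the parotid, where Cyp1a2 was highest, Ahr had 1.55. Arnt, the partner of Ahr, had 1.26 in the meibomian gland and was highest in the submandibular (5.61). The Ah receptor repressor gene Ahrr had 5.85 in the meibomian gland and was highest in the lacrimal (10.7). The part of these genes in the family 1 levels was not tested.

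Of the family 2A, 2B, 2D and 2E genes, Cyp2a12, Cyp2b19, Cyp2d9, Cyp2d22 and Cyp2e1 had their highest gland level in the parotid, Cyp2b13 in the submandibular and Cyp2b9 in the sublingual gland. Cyp2a12 had 16.7 and 9.10 in male parotid pools and 18.1 and 8.27 in female ones. Every parotid pool lay above the highest pool of any other gland, which was 4.03, a female sublingual pool. The parotid difference was 3.49 ± 0.22 (12.3 against 1.09, limma adjusted p = 1.59e-10). Cyp2a12 was also higher in the sublingual gland (1.25 ± 0.22, adjusted p = 0.000311), and lower in the lacrimal (-1.46 ± 0.19, adjusted p = 3.1e-06) and meibomian (-2.30 ± 0.19, adjusted p = 1.86e-09) glands.

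Cyp2b13, of the CYP2B family that is inducible in mouse liver, had its highest level in the submandibular gland, with 10.4, 15.2 and 5.31 in males and 13.4, 22.6 and 5.47 in females. Its lacrimal range, 1.41 to 8.56, and its sublingual range, 1.07 to 7.33, overlapped these values. All 6 meibomian pools lay below the 30th percentile, at 0.173 to 0.235. The submandibular level was at least 9.55-fold that of the other glands (log2 difference 3.40 ± 0.33, adjusted p = 1.01e-07), and the meibomian level at least 9.31-fold lower (-3.78 ± 0.33, adjusted p = 3.43e-09). Cyp2b13 was lower in the parotid gland too (-2.46 ± 0.38). Its lacrimal difference of 1.56 ± 0.33 was 0.44 in the first array set and 2.25 in the second, and its sublingual call (1.28 ± 0.38) was lost without sublingual pool A of either sex and in the second array set alone (0.92).

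The neighbouring Cyp2b19, known as an epoxygenase of keratinocytes, was higher in the parotid gland at 5.52 against 2.21 (1.32 ± 0.17, adjusted p = 3.08e-06). Its meibomian level was 4.13, and the ranges of these 2 glands overlapped. Cyp2b9, a further CYP2B gene, was lower in the submandibular gland (0.164 against 0.448, at least 1.53-fold, -1.45 ± 0.34, adjusted p = 0.00261), a call lost without female pool C, in which it lay at the floor of 0.0234. The 3 CYP2B members, neighbours among the members on chromosome 7, had their highest level in 3 different glands (submandibular for Cyp2b13, parotid for Cyp2b19, sublingual for Cyp2b9, whose sublingual and meibomian ranges overlapped).

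Cyp2e1 had 30.7 and 49.8 in male parotid pools and 12.4 and 33.9 in female ones, so that the lowest female pool lay inside the submandibular range of 7.04 to 19.4. It was higher in the parotid gland, at 28.3 against 7.21 (1.97 ± 0.28, adjusted p = 1.19e-05), and lower in the lacrimal, at 2.76 against 12.9 (-2.22 ± 0.24, adjusted p = 2.16e-07). Cyp2e1 is also a gene of fat cells, and the adipocyte sum had the same order of extremes, at 158 to 475 in parotid pools, 68.0 to 226 in the other 2 salivary glands and 11 to 46.0 in lacrimal pools. Its part in the Cyp2e1 difference was not tested.

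Both CYP2D members were higher in the parotid gland and lower in the meibomian. Cyp2d9, a steroid 16-alpha-hydroxylase of male mouse liver, had 19.3 and 32.3 in male parotid pools and 14.5 and 21.7 in female ones, against 3.13 to 4.22 in meibomian pools. Its parotid difference was 1.70 ± 0.29 (adjusted p = 0.000105) and its meibomian difference -1.47 ± 0.25 (adjusted p = 3.04e-05). It passed the sex test in no gland. Cyp2d22, its paralog, was at least 2.52-fold higher in the parotid gland (1.60 ± 0.21, adjusted p = 4.32e-06), and its meibomian level was at least 2.21-fold lower (-2.22 ± 0.18, adjusted p = 1.21e-09).

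Cyp2c55 and Cyp3a13, which differed by sex in the lacrimal gland, also had their highest gland level there with the sexes weighted equally. In females alone, Cyp3a13 was higher in the meibomian gland (1.12) than in the lacrimal (0.843). Cyp2c55 had a lacrimal range of 0.666 to 2.81 on 5 arrays, above every array of the other glands, whose highest was 0.517. It was at least 4.19-fold higher in the lacrimal gland (2.49 ± 0.18, adjusted p = 1.18e-09), a call lost when the missing spot was read as a low signal (1.35, adjusted p = 0.0848). Cyp3a13 was higher in the lacrimal gland (2.38 against 0.451, at least 4.75-fold, 2.40 ± 0.21, adjusted p = 1.36e-08) and in the meibomian (1.19 against 0.536, 1.15 ± 0.21, adjusted p = 8.44e-05), and lower in the sublingual (at least 2.45-fold, -1.90 ± 0.25, adjusted p = 9.98e-06). The female lacrimal pools of Cyp3a13, 0.444 to 1.31, overlapped the meibomian range of 0.810 to 1.46, while the male lacrimal pools, from 4.70, lay above every pool of the other glands.

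Cyp2g1, an olfactory enzyme, passed the filter only through the meibomian gland, so its level there is given without a test. It averaged 0.682 in the meibomian gland and 0.244 to 0.377 in the others, and its submandibular pools, up to 0.938, overlapped the meibomian range of 0.505 to 0.952. Cyp2f2 and Cyp2c38 passed the F test (adjusted p = 0.0277 and 0.0071) and no single-gland call. Cyp2f2 lay between 57.7 and 211 on all 26 arrays, well above the 30th percentile of each, with geometric means from 87.3 (parotid) and 90.7 (meibomian) to 118 (lacrimal), 119 (sublingual) and 152 (submandibular). Every submandibular pool, from 130.0, lay above every meibomian pool, up to 115, and level with or above the highest parotid pool. The other pairs of glands overlapped.

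**Figure D4:**
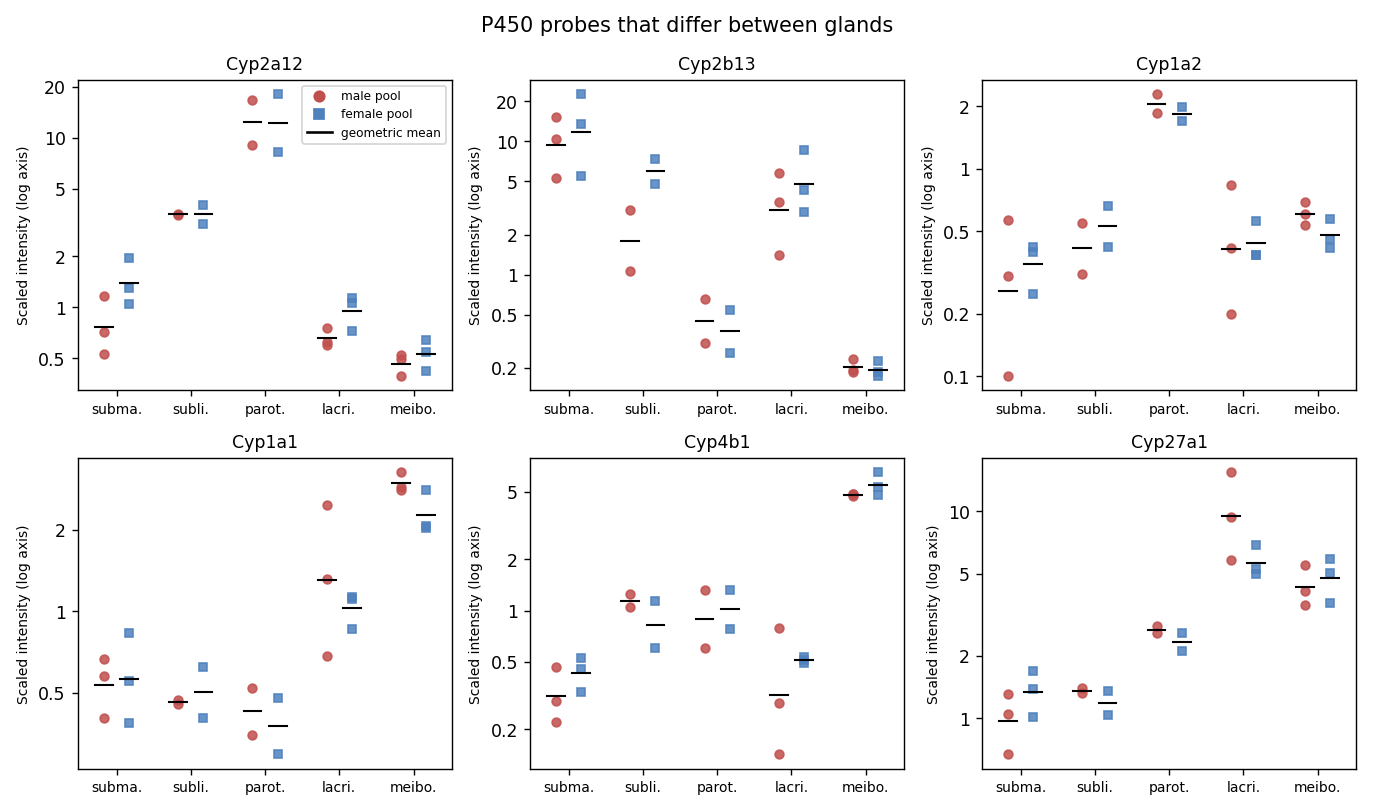
Scaled intensity (log axis) of 6 P450 probes on every array, by gland; red circles are male pools, blue squares female pools and black bars the geometric means. All parotid pools lie above those of the other glands for Cyp2a12 (8.27 to 18.1) and Cyp1a2 (1.70 to 2.29), and all meibomian pools for Cyp4b1 (4.73 to 6.53), while the highest gland overlaps others for Cyp2b13 (submandibular, 5.31 to 22.6; lacrimal up to 8.56 and sublingual up to 7.33), Cyp1a1 (meibomian, 2.03 to 3.26; 1 lacrimal pool at 2.46) and Cyp27a1 (lacrimal, 4.99 to 15.5; meibomian up to 5.90).

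Of the 6 fatty acid and eicosanoid enzymes that passed the filter, 3 were higher in the meibomian gland and 1 was lower. Cyp4b1, which hydroxylates fatty acids and activates some foreign compounds, had 4.87, 4.73 and 4.86 in male meibomian pools and 4.80, 6.53 and 5.37 in female ones. The highest pool of any other gland was 1.33. The difference was 3.08 ± 0.26 (5.16 against 0.608, limma adjusted p = 1.86e-09), and Cyp4b1 was lower in the submandibular (-1.69 ± 0.26) and lacrimal (-1.51 ± 0.26) glands.

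Cyp4f15 had 3.33, 2.32 and 2.86 in male meibomian pools and 3.74, 2.57 and 3.64 in female ones, above the highest pool of any other gland (1.26, a female lacrimal pool). It was at least 7.15-fold higher there (2.92 ± 0.18, adjusted p = 2.5e-11) and at least 2.62-fold lower in the sublingual gland. Cyp4f16, a close relative, was higher in the meibomian gland at 3.23 against 1.06 (1.61 ± 0.24, adjusted p = 5.82e-06). Its meibomian pools were uneven, with 5.23 and 6.13 in pool A of males and females and 2.06 to 3.37 in pools B and C, and the difference was 2.37 in the first array set and 1.2 in the second.

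Cyp4f13 passed neither the F test nor any single-gland test, with gland means from 1.77 in the parotid to 2.48 in the sublingual gland. Cyp2j6, an epoxygenase of arachidonic acid, was lower in the meibomian gland, at 1.46 to 1.89 against 1.95 or more on every other array (-1.13 ± 0.19, adjusted p = 3.09e-05). Cyp2j9 passed only the F test (adjusted p = 0.00534), with a highest mean of 0.599 in the meibomian gland. The epidermal and muscle marker sums were also high in the meibomian gland, as given above, and their part in its P450 levels was not tested.

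Of the 4 cholesterol and oxysterol enzymes that passed the filter, Cyp27a1 and Cyp46a1 were called in a gland. Cyp27a1 was higher in the lacrimal gland, at 7.31 against 2.01 (1.86 ± 0.18, adjusted p = 6.37e-08), and lower in the submandibular (-1.49 ± 0.18, adjusted p = 2.93e-06) and sublingual (-1.30 ± 0.22, adjusted p = 0.000137) glands. The lacrimal pools, from 4.99, overlapped the meibomian pools, up to 5.90. The meibomian difference of 1.0 ± 0.18 lay at the threshold of 1, and the call did not hold under 14 of 34 other settings.

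Cyp46a1 was higher in the parotid gland, with 0.727 and 1.02 in male pools and 0.640 and 0.815 in female ones (at least 2.05-fold, 1.42 ± 0.24, adjusted p = 0.000113), a range that overlapped the female submandibular pools. In the meibomian gland it lay below the 30th percentile on all 6 arrays, at 0.0990 to 0.153 (at least 1.63-fold lower, -2.02 ± 0.21, adjusted p = 4.91e-08). Cyp39a1 and Cyp7b1, the 2 oxysterol 7-alpha-hydroxylases, passed the F test (adjusted p = 0.00102 and 0.00922) without a single-gland call. Cyp39a1 averaged 3.51 in the submandibular gland and 2.87 in the lacrimal, then 2.15 in the parotid, 1.68 in the sublingual and 1.55 in the meibomian. Its submandibular and lacrimal ranges each overlapped all the others.

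Cyp27b1, which makes the active form of vitamin D, had the smallest span of gland means among the 28 members, between 0.568 and 0.699, and its F test gave an adjusted p of 0.657. Its levels lay between 0.411 and 0.971 on all arrays. Cyp17a1, the 17-alpha-hydroxylase of steroid synthesis, passed the filter only through the meibomian gland, with 0.485, 0.579 and 0.506 in male pools and 0.627, 0.712 and 0.487 in female ones. Its level there is therefore given without a test: it averaged 0.560, against 0.279 in the lacrimal gland and 0.0616 to 0.0953 in the salivary glands, where every pool was below the 30th percentile. A male lacrimal pool at 0.700 lay inside the meibomian range. The steroidogenic markers Star and Hsd3b1 were below the 30th percentile on every array of all 5 glands. Cyp20a1 was lower in the meibomian gland, at 0.555 to 1.02 against 1.16 or more on every other array (-1.63 ± 0.19, adjusted p = 2.3e-07).

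Genes that serve P450 enzymes were followed as 2 lists. Of 15 probes for electron supply and haem turnover, all 15 passed the filter. In the meibomian gland 8 were higher (53.3%, against 17% of all probes) and 1 lower (6.67%, against 20.9%), with a list median of 1.01 against -0.09 over all probes. Pgrmc1, a haem-binding partner of P450 enzymes, had 52.9 against 13.4 (1.98 ± 0.17), Cyb5b, an outer mitochondrial membrane cytochrome b5, had 9.43 against 2.46 (1.94 ± 0.14), and Ppox, of haem synthesis, had 2.42 against 0.668 (1.85 ± 0.19). In the parotid gland, where 7 P450 members were higher, none of the 15 was higher and 4 were lower (26.7%, against 8.12% of all probes), among them Fdx1, the mitochondrial ferredoxin (8.59 against 22.0, -1.36 ± 0.16), and Hmox1, which breaks haem down (-1.40 ± 0.22).

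The lacrimal gland had Hmox1 (1.55 ± 0.19) and Urod, of haem synthesis (1.41 ± 0.16), higher and Ppox lower. Between the sexes, Alad was lower in male submandibular glands (2.75 against 6.49, adjusted p = 0.00284), and Urod (11.7 against 23.5, adjusted p = 0.0298) and Cyb5r1 (1.55 against 3.60, adjusted p = 0.0394) were lower in male lacrimal glands.

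Of 29 probes for transcription factors known to act on P450 genes, 21 passed the filter. In the meibomian gland 5 were higher (23.8%, against 17% of all probes) and 6 lower (28.6%, against 20.9%), with a list median of -0.49 against -0.09 over all probes. Pparg, the lipid-sensing receptor of fat and sebaceous cells, had 11.2 against 0.661 (4.09 ± 0.23), and Cebpb had 8.19 against 1.83. Nr0b2, the small heterodimer partner that represses bile acid genes, fell to 0.281 in the meibomian gland against 5.54 in the others, and had 48.2 against 1.53 in the parotid gland (4.98 ± 0.31). Ppard, a fatty acid receptor, was also higher in the parotid (19.8 against 2.24, 3.14 ± 0.22), as was Vdr, the vitamin D receptor (1.62 against 0.472). In the submandibular gland 4 were higher (19%, against 5.69% of all probes) and 1 lower (4.76%, against 6.6%): Nr0b1 had a level at least 12.9-fold higher (3.96 ± 0.22), and Arnt, the partner of Ahr, had 5.61 against 1.38.

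Arnt also differed by sex in the submandibular gland, at 10.9 in males and 2.89 in females (1.92 ± 0.26, adjusted p = 0.000127). In the same gland Stat5a and Rxrg were lower in males (-0.99 ± 0.24 and -0.95 ± 0.22). In the lacrimal gland 1 of the 21 passed the sex test (4.76%, against 5.41% of all probes). This was Cebpa, a factor of many liver P450 genes, at 0.470 in males and 1.19 in females (-1.34 ± 0.28, adjusted p = 0.00416). No link between these factors and the P450 levels was tested.

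Position on the chromosome was set beside the levels. On chromosome 7 all 7 members passed the filter (in order Cyp2b13, Cyp2b9, Cyp2b19, Cyp2g1, Cyp2a12, Cyp2f2 and Cyp2e1), and their highest gland was submandibular, sublingual, parotid, meibomian, parotid, submandibular and parotid. On chromosome 19, of the 6 CYP2C members, only Cyp2c55 and Cyp2c38 passed, and both were highest in the lacrimal gland. So were Cyp2c29, Cyp2c39 and Cyp2c40, which did not pass, while Cyp2c37 was highest in the submandibular. Some dim probes outside the family, such as Star and Nr1h4, were also highest in the lacrimal gland. This peak therefore cannot be read as a trait of the cluster. On chromosome 17, Cyp4f16, Cyp4f15 and Cyp4f13 passed and Cyp4f14, which lies between them, did not.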

How the data were processed

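RNA of 26 gland pools was measured on single-channel arrays. The deposited table holds 1 linear intensity per probe and array, which the authors had scaled within each array; this was read from the values, since array medians were alike and small negative values occurred. Platform, background correction and scanner settings are not given in the sources used here. Cells of exactly -1 (2241, 0.821%) were taken as missing. Lower values than 0.0234, the 1st percentile of all positive ones, were set to that floor before log2. Probes at or above their array's 30th percentile on every measured array (at least 2) of at least 1 group were kept, 8211 of 10500.

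One limma model (version 3.58.1, R 4.3.3) held all arrays, with 10 means of sex and gland and 16 residual degrees of freedom. P-values were adjusted by Benjamini-Hochberg over all kept probes within each comparison, and a gland call also needs a log2 difference of at least 1. The script was tested on simulated data. The number of arrays limits the precision: median standard deviations between pools of a group were 0.241 (meibomian) to 0.504 (lacrimal) on the log2 scale. The labels do not pair male and female pools, so the pairing by letter was read from the values. In the glands with 3 pools, deviations of same-letter arrays correlated at 0.441 to 0.816 over 7555 probes, the best match in all 9 pairs.

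Members follow the symbol rule. The role, partner and marker lists were chosen with earlier results of these data known. Per-array values are for up to 12 members per sex comparison and 8 per gland past the threshold, by size, and up to 4 partners of each list are named; other members' values were chosen after they were seen. Alternatives were the floor, the missing code, quantile normalization, the filter, the pool letter as a block, the gland's own arrays, leaving out each array and, added after seeing the data, the array set. Gene symbols come from the platform annotation, and all 45 matched RefSeq (GRCm38.p6).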

Additional observations from a re-analysis of the deposited data

Results flagged for a closer look

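The sex difference of Cyp3a13 differed between the glands (moderated F test, adjusted p = 0.00143). It was 3.0 ± 0.37 on the log2 scale in the lacrimal gland, while the sexes overlapped in the other 4 glands. The sex difference of Cyp2c55 also differed between the glands (adjusted p = 0.0187). It was 1.65 ± 0.32 in the lacrimal gland, on 2 male and 3 female arrays, and -0.78 ± 0.29 in the submandibular gland. Groups of 2 or 3 pools are too small to test for a single pool that stands apart from its group.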

How the results depend on the processing

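Of 48 calls of single P450 members, 38 held under every alternative run, of 35 in all, and 10 were lost under at least 1. Cyp17a1 and Cyp2g1 in the meibomian gland, which the filter settled, are among the 48. Cyp3a13 in the lacrimal gland held under all 35 (log2 difference 2.53 to 3.31). With the missing code raised to the floor, Cyp2c55 reversed to -0.62 there, by construction from its 1 missing male array, and the sex calls in the lacrimal gland went to 2 and the F test over glands to 1. Quantile normalization gave 1 submandibular sex call and 4 in the F test. Member counts given here without the count over all probes for the same comparison cannot set the family apart from other probes. The replicate block gave 3 submandibular, 2 over the mean of glands and 5 in the F test, and over all probes 590 (213 without it), 36 (17), 1 (2), 1109 (444), 328 (104) and 572 (215) for the submandibular, sublingual, parotid and lacrimal glands, the mean of glands and the F test. With the letter as a block over all glands the gland calls gained Cyp4f16 (parotid), Cyp2c38 (lacrimal) and Cyp2b9 (meibomian) and lost none. The array set as a block gave 1 submandibular call and 5 in the F test (all probes, mean of glands, 170). The second array set alone gave 2 lacrimal sex calls and 1 in the F test, and over all probes 117 submandibular, 3 sublingual, 23 parotid, 47 over the mean of glands and 136 in the F test, on fewer arrays. The arrays of 1 gland alone gave 1 lacrimal call (93 of all probes; 0 in the sublingual and parotid glands). Without the filter the lacrimal, meibomian and any-gland counts were 20, 32 and 40 of all 45 members (all probes, lacrimal against the others, 2998). The members added in this way are dim, and most were highest in the lacrimal gland. For example, Cyp21a1 had 0.230 in the lacrimal and 0.0409 in the meibomian gland, and Cyp3a11 had 0.199 and 0.0473. Some dim probes outside the family had the same order, with 0.213 and 0.0562 for Star and 0.186 and 0.0623 for Nr1h4. Why such low levels differ by gland was not tested. Leaving out each array in turn, the lacrimal sex calls ran from 2 (without male pool B) to 6 (without male pool A), the F test from 1 (without male lacrimal pool B) to 3, and the other sex counts stayed at 0. Over all probes, leaving out 1 array gave 6 to 13 parotid sex calls without female pool A (13), female pool B (6) or male pool A (8), 29 sublingual ones without male pool A, and 141 submandibular ones without male pool A or B. Other causes were not tested. Members below the 30th percentile are limited by signal over background, and their folds are bounds.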

Other observations

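Cyp8b1, the sterol 12-alpha-hydroxylase of bile acid synthesis, did not pass the filter, but it stood out in submandibular pool B of both sexes. It had 0.0472, 1.08 and 0.0242 in male pools A, B and C and 0.235, 0.886 and 0.187 in female pools. Cyp2c37, which did not pass either, was also highest there, with 0.152, 0.586 and 0.188 in male pools and 0.139, 0.384 and 0.184 in female pools. Pool B of this gland belongs to the first array set. These values were chosen after they were seen.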
